A study of Arabidopsis thaliana with 12 samples.

Results

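The 10 genes of leaf starch degradation described here were followed across *jac1* and wild-type *Arabidopsis thaliana* rosettes with and without UV-C. They were taken as the rows of the deposited count table whose gene identifier is that of *SEX1*, *SEX4*, *BAM1*, *BAM3*, *BAM5*, *BAM9*, *ISA3*, *DPE1*, *DPE2* or *PHS2*, which makes 10 of the 37813 genes in the table. All 10 passed the filter on low counts and were among the 20101 genes tested. They, and the lists and promoter motifs set beside them below, were chosen with earlier results of these data known. A share of all genes printed beside a count is therefore a description and not a test of these genes.

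JAC1 is a protein needed for the accumulation movement of chloroplasts in weak light, and the study compared the *jac1-1* mutant with the wild type before and after a UV-C stress. The 4 groups, each of 3 biological replicates, were sequenced: UV-C treated *jac1*, UV-C treated wild type, non-treated *jac1* and non-treated wild type. Every plant, wild type included, was in the Col-0 *gl1* background, and the mutant was represented by the *jac1-1* line alone. Plants were 4 weeks old and grown under an 8 h photoperiod. Each replicate pooled at least 4 whole rosettes, and treated rosettes were collected 30 min after 100 mJ cm-2 of UV-C. The time of day of collection is not given in the sources used here, neither for the treated nor for the non-treated plants.

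Total counted reads ranged from 21939540 to 27194762 in UV-C treated *jac1*, from 20897905 to 24461667 in the UV-C treated wild type, from 33999174 to 39098227 in non-treated *jac1* and, in non-treated wild-type plants, from 34496078 to 40445085. Chloroplast-encoded genes took 1.64 to 2.19% of them in UV-C treated *jac1*, 1.86 to 2.34% in the UV-C treated wild type, 0.0178 to 0.0219% in non-treated *jac1* and 0.0172 to 0.0202% in non-treated wild-type plants. Values per sample are read counts scaled to library size with TMM factors (CPM), and a log2 FC is the difference between groups in edgeR's model over all 12 samples. A gene is said to have risen or fallen where its adjusted p was under 0.01 by the quasi-likelihood test of edgeR, Benjamini-Hochberg adjusted across the tested genes. It is called a DEG where the absolute log2 FC was also over 1. *JAC1* itself was not lower in the mutant (log2 FC 0.27 after UV-C and 0.69 without treatment), so its reads do not check the genotype. Among the markers, mesophyll genes summed to 36575 to 41293 CPM in UV-C treated *jac1*, above the rest, 25927 to 28518 CPM in the UV-C treated wild type, 30947 to 32335 CPM in non-treated *jac1* and 26768 to 30669 CPM in the non-treated wild type. Of these genes, *CAB3* rose after UV-C in *jac1* by a log2 FC of 1.94. *RBCS1A* (log2 FC -0.06) and *RCA* (0.13) overlapped there between treated and non-treated samples. The part of the mesophyll marker levels in the starch gene values was not tested. The floral genes summed to 0.719 to 0.975 CPM in UV-C treated *jac1*, 2.88 to 3.91 CPM in the UV-C treated wild type, 0.54 to 0.75 CPM in non-treated *jac1* and 2.58 to 3.79 CPM in the non-treated wild type. One of the 2 root hair markers had no reads in any group and their sum stayed at or below 0.115 CPM.

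Leaves store part of the carbon fixed by day as starch granules inside the chloroplast and break them down at night. Phosphate groups are first added to glucan chains at the granule surface and later removed, which opens the granule to hydrolysis. β-amylases then release maltose, debranching enzymes cut the branch points, and glucan-transferring enzymes in the chloroplast and the cytosol convert the short glucans and the exported maltose. The pace of the breakdown is set in part by the circadian clock, and transcripts of many of these enzymes cycle over the day.

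Of the 10 genes, *SEX1* (AT1G10760, chromosome 1 from 3580830 to 3590928) encodes the glucan, water dikinase that adds the phosphate, and *SEX4* (AT3G52180, chromosome 3 from 19349600 to 19353728) encodes a phosphatase that removes it. The β-amylase family has 4 members here. *BAM1* (AT3G23920, chromosome 3 from 8641181 to 8644449) and *BAM3* (AT4G17090, chromosome 4 from 9604962 to 9607402) encode active chloroplast enzymes, *BAM3* known for its main role in leaves at night and *BAM1* for a role in guard cells and under osmotic stress. *BAM5* (AT4G15210, chromosome 4 from 8666334 to 8669526) encodes a β-amylase outside the chloroplast that is found in phloem, and *BAM9* (AT5G18670, chromosome 5 from 6225956 to 6228195) a chloroplast family member without catalytic activity. *ISA3* (AT4G09020, chromosome 4 from 5783909 to 5789100) encodes a debranching isoamylase. *DPE1* (AT5G64860, chromosome 5 from 25925173 to 25928879) encodes the disproportionating enzyme of the chloroplast. *DPE2* (AT2G40840, chromosome 2 from 17044932 to 17051062) and *PHS2* (AT3G46970, chromosome 3 from 17301394 to 17306633) encode the cytosolic transglucosidase and the cytosolic glucan phosphorylase of maltose metabolism. Coordinates are those of the count table and were the same in the RefSeq annotation of TAIR10.1 for all 10 genes.

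The 500 bases before each annotated gene start were searched on both strands for 3 motifs of light and clock control. The evening element AAAATATCT is a site known to be bound by the clock proteins CCA1 and LHY. It lay in 2 of the 10 windows (*SEX1* and *ISA3*) and in 4.43% of the 27439 windows of all nuclear protein-coding genes. The CCA1-binding site AAAAATCT was present in 2 windows (*ISA3* and *DPE2*) and in 12.5% of all. The G-box CACGTG, bound by transcription factors of the bHLH and bZIP families, was found in 5 (*BAM1*, *BAM5*, *BAM9*, *DPE1* and *PHS2*) and in 9.34% of all. The following are a choice among the matches, from genes with contrasts given further on. The G-box matches of *DPE1* and the CCA1-binding site of *ISA3*, also clear of exons, are not printed. The printed stretches hold 25 bases on either side of a match where no annotated exon was touched. They are read 5′ to 3′ on the strand of the gene from the RefSeq TAIR10.1 sequence, with the motif in capitals; in *ISA3* it stands as the reverse complement AGATATTTT. In the order printed they cover chr1:3591347-3591405 (minus strand), chr4:5783845-5783903 (plus), chr5:6225851-6225906 (plus), chr3:8640789-8640844 (plus) and chr4:8669749-8669804 (minus).
*SEX1* evening element: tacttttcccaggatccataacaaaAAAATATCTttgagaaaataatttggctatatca
*ISA3* evening element: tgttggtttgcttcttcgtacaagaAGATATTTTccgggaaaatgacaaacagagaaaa
*BAM9* G-box: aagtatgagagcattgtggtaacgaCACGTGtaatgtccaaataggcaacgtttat
*BAM1* G-box: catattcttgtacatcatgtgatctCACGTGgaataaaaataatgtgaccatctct
*BAM5* G-box: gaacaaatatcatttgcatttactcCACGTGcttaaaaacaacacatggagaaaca
A match is a string of letters and not a measured binding site. *SEX1* and *ISA3* were both highest in the non-treated wild type, and so were the G-box genes *DPE1* and *PHS2*. *SEX4* and *DPE2*, which had no evening element in the window, were highest there as well. *BAM9* was highest in non-treated *jac1* and *BAM1* in UV-C treated *jac1*, as described next.

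Of the 10 genes, 6 had their highest expression in the non-treated wild type, with all 3 of its samples above the other 9: *SEX1*, *SEX4*, *ISA3*, *DPE1*, *DPE2* and *PHS2*. Of all genes tested, 7.26% had that pattern. *BAM9* stood above the other samples in non-treated *jac1*, as 5.28% of all genes did, and *BAM1* in UV-C treated *jac1*, as 17% of all genes did. *BAM3* and *BAM5* had their highest means in non-treated and in UV-C treated *jac1*, and both overlapped with another group. Because whole rosettes were sequenced, fewer cells of a type and less RNA per cell cannot be told apart in any of these values.

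**Figure D1:**
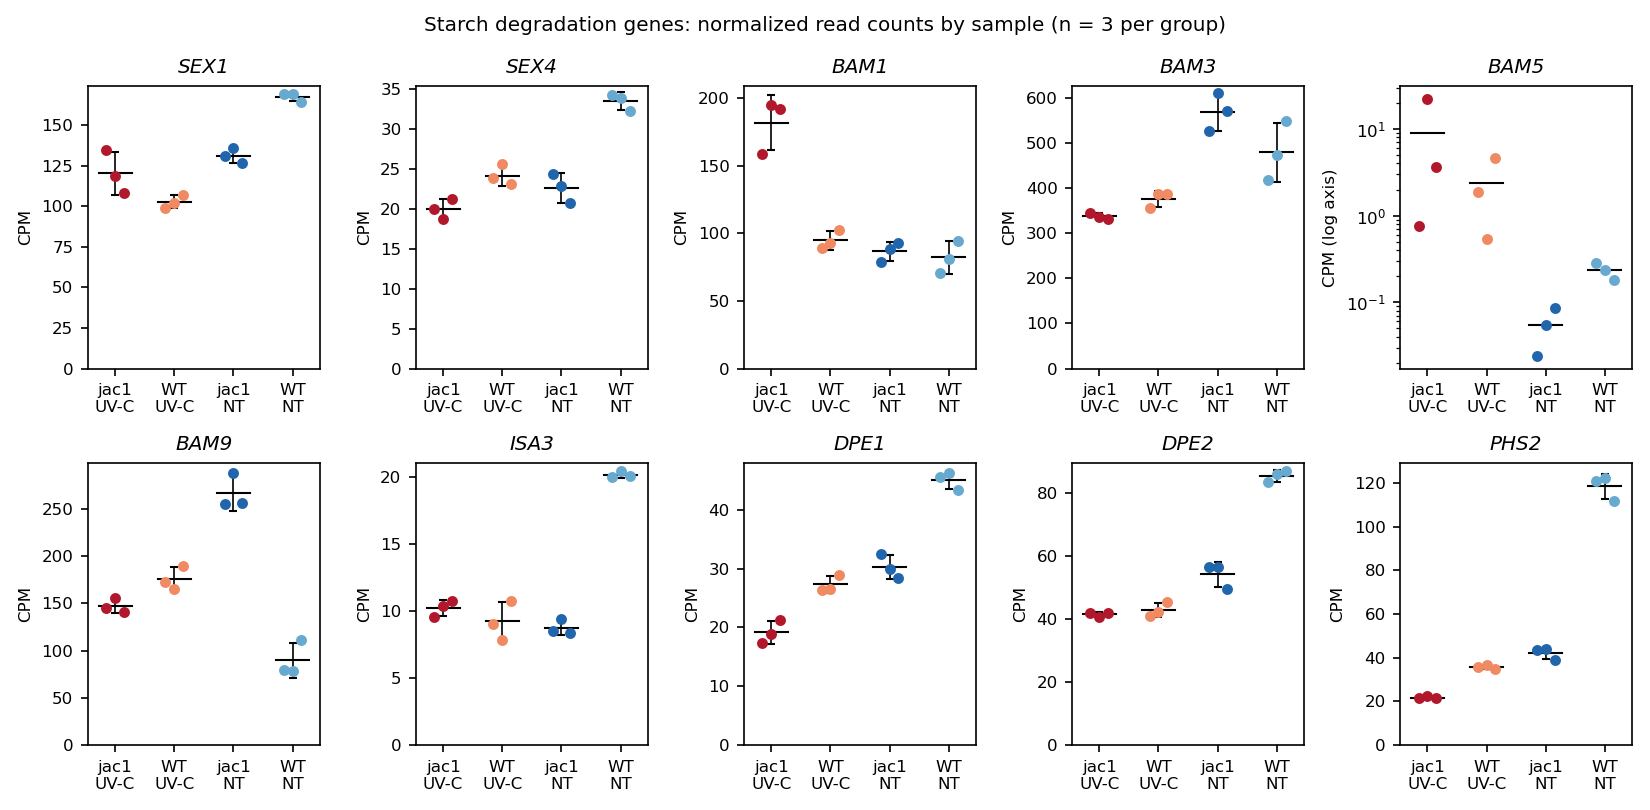
Expression of the 10 starch degradation genes in CPM (vertical axes; logarithmic for *BAM5*), with a point for each of the 3 samples of UV-C treated *jac1*, UV-C treated wild type, non-treated (NT) *jac1* and NT wild type. Lines are group means and bars the SD (none for *BAM5*); *PHS2* lies between 112 and 122 CPM in the NT wild type and at or below 44.1 CPM in all other samples.

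Scaled by exon length, *BAM3* was the most abundant of the 10 in every group, with 161 ± 3.25 CPM per kb in UV-C treated *jac1*, 179 ± 8.48 in the UV-C treated wild type, 270 ± 20.3 in non-treated *jac1* and 228 ± 31.1 in the non-treated wild type (SD, n = 3 each). *BAM9* was next in all 4 groups, though in UV-C treated *jac1* its range met that of *BAM1* (74.1 ± 3.97 and 72.2 ± 8.11 CPM per kb). *ISA3* and *BAM5* were the least abundant in every group. *PHS2* changed place most: it ranked 8 in both UV-C treated groups, 7 in non-treated *jac1* and 3 in the non-treated wild type, where it had 37.4 ± 1.84 CPM per kb. Its neighbours in that last order, *BAM9* with 45.1 ± 9.43 and *SEX1* with 33.3 ± 0.582 CPM per kb, did not overlap with it.

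Without treatment, 7 of the 10 genes differed between *jac1* and the wild type by adjusted p, 1 higher and 6 lower in the mutant. Over all genes tested 9.53% did so, 5.23% higher and 4.3% lower. DEGs were 3 of the 10, *BAM9* higher and *ISA3* and *PHS2* lower, against 1.95% of all genes (1.03% higher and 0.915% lower). The median log2 FC of the 10 was -0.57, and that of all genes was -0.01.

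In the wild type, UV-C was followed by a fall of 7 and a rise of 1 of the 10 genes by adjusted p, where 34.7% of all genes differed (17% higher and 17.7% lower). *ISA3* and *PHS2* were DEGs, both lower, while 9.27% of all genes were DEGs (7.01% higher and 2.26% lower). The median log2 FC of the 10 was -0.59. This comparison and the previous one share the non-treated wild-type samples, so that a gene standing high in those 3 samples is lower in both.

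In *jac1*, UV-C was followed by a rise of 2 and a fall of 5 genes by adjusted p, against 48.4% of all genes (26.2% higher and 22.2% lower). The DEGs were *BAM1* and *BAM5*, both higher, against 13.7% of all genes (8.96% higher and 4.75% lower). Here the median of the 10 was -0.28.

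After UV-C, *jac1* and the wild type differed in 3 of the 10 genes by adjusted p, *BAM1* higher and *DPE1* and *PHS2* lower in the mutant, and in 28.1% of all genes (16.7% higher and 11.4% lower). None of the 10 was a DEG by the quasi-likelihood test of edgeR, the likelihood ratio test or DESeq2, although 7 had an unadjusted p under 0.05. The share of all genes at that unadjusted level was not counted, here or further on, so nothing particular to these genes is read from it. Among all genes 4.21% were DEGs (2.52% higher and 1.69% lower). The median of the 10 was -0.10.

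The response to UV-C differed between the genotypes, as tested by the interaction term, in 6 of the 10 genes by adjusted p, 5 with a positive and 1 with a negative term. Over all genes 13.4% did so (8.31% positive and 5.09% negative). *ISA3* with a positive and *BAM9* with a negative term were DEGs of the interaction, as were 3.88% of all genes (2.11% positive and 1.77% negative). The interaction includes the non-treated wild-type samples as well.

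**Figure D2:**
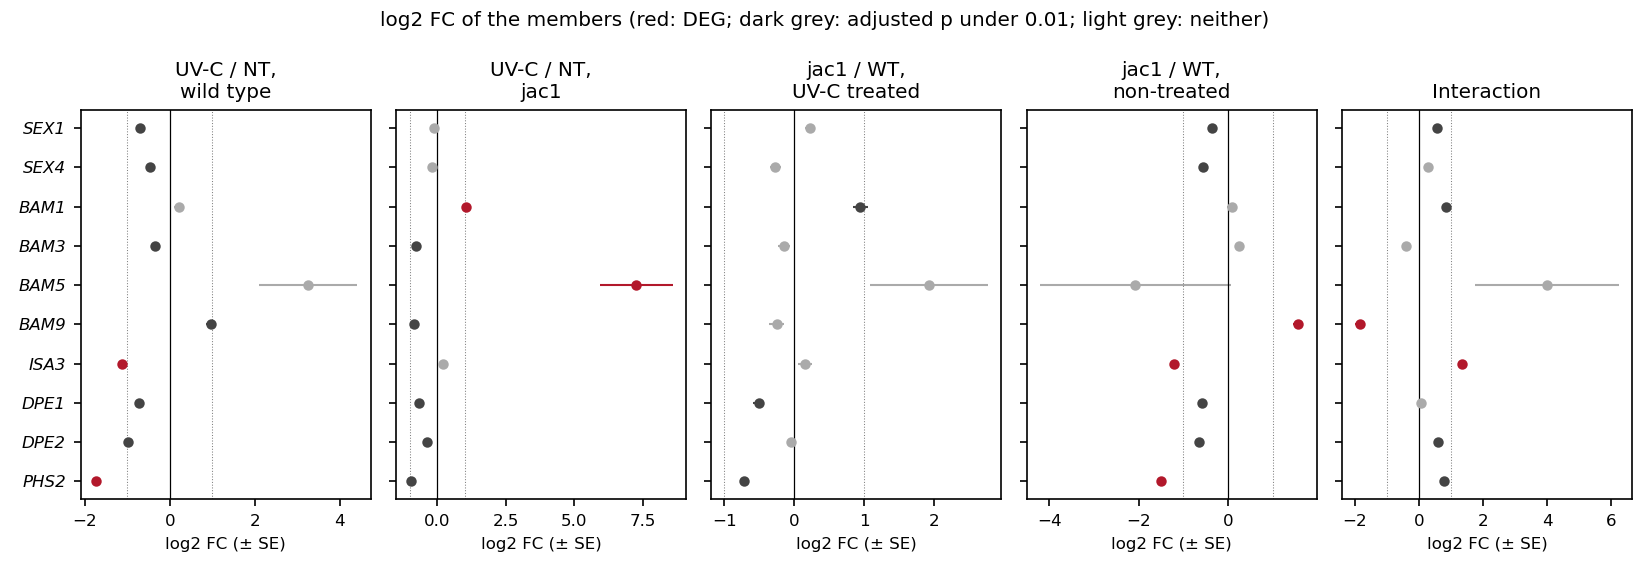
log2 FC (horizontal axes, bars ± 1 standard error) of the 10 genes in the 5 comparisons, with dotted lines at the fold threshold; the axes differ in range. Red points are DEGs, dark grey points passed the adjusted p alone and light grey points passed neither; *BAM5* has the widest bars and *PHS2* lies left of 0 in all comparisons but the interaction.

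Among the genes of glucan phosphorylation, *SEX1* fell by 0.71 on the log2 scale after UV-C in the wild type (standard error 0.07, adjusted p = 2.58e-06 by edgeR). Its level was 108 to 134 CPM in UV-C treated *jac1*, 99.1 to 107 CPM in the UV-C treated wild type, 127 to 136 CPM in non-treated *jac1* and 164 to 169 CPM in the non-treated wild type. In *jac1* its log2 FC after UV-C was -0.13 (adjusted p = 0.138), and the treated and non-treated samples overlapped. The interaction of 0.58 passed the test (adjusted p = 9.15e-04). Without treatment *SEX1* was lower in *jac1* by a log2 FC of -0.35 (adjusted p = 0.003), and this call was lost without any one of replicates 1 and 3 of non-treated *jac1* or replicates 1 and 2 of the non-treated wild type, with adjusted p-values of 0.0108, 0.0158, 0.0143 and 0.0125 in that order. After UV-C its log2 FC between genotypes was 0.23 (adjusted p = 0.0197), which passed the test only without replicate 3 of UV-C treated *jac1* (0.30, adjusted p = 0.00357).

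*SEX4*, whose product removes the phosphate, was at 18.7 to 21.3 CPM in UV-C treated *jac1*, 23.0 to 25.6 CPM in the UV-C treated wild type, 20.7 to 24.4 CPM in non-treated *jac1* and 32.2 to 34.3 CPM in the non-treated wild type. It fell after UV-C in the wild type (log2 FC -0.47, adjusted p = 1.13e-04) and was lower in non-treated *jac1* than in the non-treated wild type (log2 FC -0.56, adjusted p = 8.39e-05). In *jac1* the log2 FC after UV-C was -0.18 (adjusted p = 0.0499), and the interaction was 0.29 (adjusted p = 0.0544), so a difference in response between genotypes did not pass the test for this gene. Between genotypes after UV-C the log2 FC was -0.27, with an adjusted p of 0.0105 by edgeR and 0.00466 by DESeq2.

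*BAM9*, the β-amylase relative without catalytic activity, moved in opposite directions after UV-C in the 2 genotypes. Its expression in UV-C treated *jac1* was 146, 156 and 141 CPM in replicates 1, 2 and 3. The UV-C treated wild type had 173, 165 and 190 CPM. Non-treated *jac1* had 256, 289 and 257 CPM, and the non-treated wild type 79.6, 78.3 and 111 CPM. No group overlapped with another, with non-treated *jac1* highest and the non-treated wild type lowest. The share of all genes with every group apart was not counted. After UV-C *BAM9* fell in *jac1* (log2 FC -0.86, standard error 0.114, adjusted p = 1.97e-05) and rose in the wild type (log2 FC 0.97, standard error 0.114, adjusted p = 1.19e-05). The interaction was -1.83 (standard error 0.161, adjusted p = 4.13e-06).

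Without treatment *BAM9* was higher in *jac1* by a log2 FC of 1.57, a 2.98-fold difference (adjusted p = 9.82e-07 by edgeR). After UV-C the genotypes were closer, with a log2 FC of -0.26 (adjusted p = 0.0869, and 0.009998 without replicate 3 of the non-treated wild type, a sample outside that comparison). Replicate 3 of the non-treated wild type was the highest of its group. Without that sample the log2 FC was 1.76 for *jac1* against the wild type without treatment, 1.16 for UV-C in the wild type, where *BAM9* then counted as a DEG, and -2.01 for the interaction. It also counted as a DEG there without UV-C treated wild-type replicate 2 (log2 FC 1.02). Of its exon bases, 33 are shared with a gene on the opposite strand, where reads were left uncounted.

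*BAM3*, the most abundant of the 10 per length, fell after UV-C in *jac1* to 332 to 345 CPM, against 525 to 610 CPM in non-treated *jac1* (log2 FC -0.75, adjusted p = 5.20e-06). In the wild type it was at 355 to 386 CPM after UV-C and at 417 to 548 CPM without treatment (log2 FC -0.35, adjusted p = 0.00417). Treated and non-treated values were apart in both genotypes. The wild-type call was lost in the fit of those 6 samples alone (adjusted p = 0.0118) and without replicate 1 or 3 of the treated or replicate 2 or 3 of the non-treated wild type (adjusted p of 0.0218, 0.0108, 0.0112 and 0.0204 in that order). Between genotypes the log2 FC was -0.15 after UV-C and 0.25 without treatment, with adjusted p-values of 0.167 and 0.0634. Without replicate 3 of the non-treated wild type the second was 0.35 (adjusted p = 0.0078). The interaction of -0.40 had an adjusted p of 0.0274 by the quasi-likelihood test, of 0.00435 by the likelihood ratio test, of 0.00359 by DESeq2 and of 0.00349 without that replicate. All 518 exon bases of a gene on the opposite strand lie within *BAM3* exons, which is 24.6% of the exon length, and that gene had 0 reads, so the level of *BAM3* is understated by the reads that fell there.

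*BAM1* rose after UV-C in *jac1* to 158, 195 and 192 CPM, against 79.0, 88.4 and 93.0 CPM in non-treated *jac1* (log2 FC 1.07, standard error 0.108, adjusted p = 1.58e-06). In the wild type it had 89.3, 92.6 and 102 CPM after UV-C and 70.6, 81.1 and 94.7 CPM without treatment. These 2 wild-type groups overlapped (log2 FC 0.21, adjusted p = 0.128). The UV-C treated *jac1* samples were the ones set apart. With library size as the only scaling the rise in *jac1* was 0.76, short of the fold threshold, where the median of all genes stood at -0.26. The interaction was 0.86 (standard error 0.151, adjusted p = 0.0011), and *jac1* exceeded the wild type after UV-C by a log2 FC of 0.94 (adjusted p = 1.64e-05), short of the fold threshold. Without replicate 1 of UV-C treated *jac1* this value was 1.03, and *BAM1* was then a DEG. Without treatment the genotypes differed by 0.08 (adjusted p = 0.67, 2 standard errors either side -0.13 to 0.29).

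Because *BAM1* is known from guard cells, the guard cell markers stand beside it. All 4 were measured, and their summed level was 27.4 to 32.6 CPM in UV-C treated *jac1*, 30.3 to 31.7 CPM in the UV-C treated wild type, 57.3 to 65.9 CPM in non-treated *jac1* and 52.4 to 58.8 CPM in the non-treated wild type. One of the 4, the anion channel gene *SLAC1*, was a DEG between the genotypes after UV-C. It was higher in *jac1* (log2 FC 1.53, adjusted p = 0.00232 by edgeR). Its reads after UV-C were few, with 19, 24 and 23 in *jac1* and 5, 8 and 12 in wild-type plants. In the same comparison the log2 FC was 0.20 for *MYB60*, -0.04 for *KAT1* and -0.44 for *FAMA*. None of these passed the test (adjusted p of 0.238, 0.84 and 0.0112 by edgeR, in that order). The part of guard cells in the *BAM1* values was not tested.

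*BAM5*, the β-amylase of phloem, was counted in few reads: 16, 388 and 71 in UV-C treated *jac1*, 42, 12 and 88 in the UV-C treated wild type, 1, 2 and 3 in non-treated *jac1*, and 13, 10 and 7 in the non-treated wild type. In CPM these were 0.767, 22.2 and 3.65 in UV-C treated *jac1*, 1.89, 0.533 and 4.65 in the UV-C treated wild type, 0.0242, 0.0545 and 0.0853 in non-treated *jac1*, and 0.282, 0.237 and 0.183 in the non-treated wild type. Every treated sample lay above every non-treated one, and within the treated groups the samples of one group spread over a wide range. In *jac1* it was a DEG (log2 FC 7.26, standard error 1.34, adjusted p = 3.42e-04). As non-treated *jac1* had at most 3 reads a sample, the ratio of scaled reads is given with its counting interval: 155 (95% Clopper-Pearson interval 70.7 to 425) with all samples and 40.7 (18.0 to 114) without UV-C replicate 2.

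In the wild type the ratio was 9.42 (6.32 to 14.5), while the log2 FC of 3.26 had an adjusted p of 0.0324, which DESeq2 put at 0.00811 and leaving out UV-C treated *jac1* replicate 1 or 2, samples outside this comparison, at 0.00827 or 0.00283. The intervals cover counting error only and not the spread between samples. Between genotypes after UV-C the log2 FC of *BAM5* was 1.93 (adjusted p = 0.082), and -0.08 without UV-C treated *jac1* replicate 2. The 2 genotypes overlapped after UV-C, and neither the log2 FC of -2.07 without treatment (adjusted p = 0.567) nor the interaction of 3.998 (adjusted p = 0.218) passed the test. Beside it, the summed level of the 4 phloem markers was 224 to 304 CPM in UV-C treated *jac1*, 325 to 464 CPM in the UV-C treated wild type, 232 to 273 CPM in non-treated *jac1* and 274 to 322 CPM in the non-treated wild type. Its part in the *BAM5* values was not tested.

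*ISA3*, the debranching enzyme, was high in one group only. It had 9.54, 10.4 and 10.8 CPM in UV-C treated *jac1* and 9.04, 7.87 and 10.8 CPM in the UV-C treated wild type. Non-treated *jac1* had 8.52, 9.40 and 8.38 CPM, and the non-treated wild type 19.99, 20.5 and 20.1 CPM. The non-treated wild type was about level among its replicates and stood above the other 9 samples, whose values lay close together. *ISA3* fell after UV-C in the wild type (log2 FC -1.13, standard error 0.0965, adjusted p = 5.11e-07) and was lower in non-treated *jac1* than in the non-treated wild type (log2 FC -1.20, standard error 0.0919, adjusted p = 1.47e-06).

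After UV-C *ISA3* did not differ between the genotypes beyond the threshold (log2 FC 0.15, adjusted p = 0.263, 2 standard errors either side -0.06 to 0.36). In *jac1* its log2 FC after UV-C was 0.22 (adjusted p = 0.0725) by edgeR. With library size as the only scaling these were -0.11 between the genotypes and -0.087 in *jac1*, where the median of all genes was -0.27 and -0.26, which leaves 0.17 and 0.18 relative to it. The interaction was 1.36 (standard error 0.14, adjusted p = 1.47e-05).

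*PHS2*, the cytosolic phosphorylase, had the lowest log2 FC of the 10 after UV-C in either genotype. It had 21.4, 22.4 and 21.4 CPM in UV-C treated *jac1* and 35.5, 36.5 and 34.9 CPM in the UV-C treated wild type. Non-treated *jac1* had 43.5, 44.1 and 38.8 CPM, and the non-treated wild type 121, 122 and 112 CPM. No group overlapped with another, a pattern whose share among all genes was not counted. *PHS2* fell after UV-C in *jac1* (log2 FC -0.96, standard error 0.0642, adjusted p = 3.15e-08) and in the wild type (log2 FC -1.73, standard error 0.0619, adjusted p = 6.92e-11), where its level was 3.32-fold lower. The interaction of 0.77 (standard error 0.0885, adjusted p = 3.49e-05) marks the smaller fall in *jac1*.

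The mutant held less *PHS2* transcript in both conditions. The log2 FC of *jac1* against the wild type was -0.72 after UV-C (adjusted p = 2.18e-06) and -1.49 without treatment (standard error 0.0602, adjusted p = 1.11e-08), a 2.81-fold lower level. Without replicate 3 of non-treated *jac1* the log2 FC in *jac1* after UV-C was -1.01, which made *PHS2* a DEG there. It shares 35 exon bases with a neighbour on the same strand, 1.1% of its exon length.

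*DPE2*, the cytosolic transglucosidase, was at 40.6 to 41.8 CPM in UV-C treated *jac1*, 40.97 to 45.3 CPM in the UV-C treated wild type, 49.5 to 56.4 CPM in non-treated *jac1* and 83.2 to 86.8 CPM in the non-treated wild type. It fell after UV-C in *jac1* (log2 FC -0.39, adjusted p = 1.09e-04) and in the wild type (log2 FC -0.997, standard error 0.0615, adjusted p = 2.00e-08), where its value sat at the fold threshold and passed it without non-treated wild-type replicate 1 and without UV-C treated wild-type replicate 3. The interaction was 0.61 (adjusted p = 2.24e-04). Without treatment it was lower in *jac1* (log2 FC -0.66, adjusted p = 6.59e-06). After UV-C the genotypes overlapped (log2 FC -0.05, adjusted p = 0.584, 2 standard errors either side -0.17 to 0.08).

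*DPE1*, the disproportionating enzyme of the chloroplast, was lower in *jac1* and lower after UV-C by similar amounts. Its level was 17.3 to 21.3 CPM in UV-C treated *jac1*, 26.4 to 28.9 CPM in the UV-C treated wild type, 28.5 to 32.4 CPM in non-treated *jac1* and 43.3 to 46.2 CPM in the non-treated wild type. It fell after UV-C in *jac1* (log2 FC -0.66, adjusted p = 6.55e-06) and in the wild type (log2 FC -0.72, adjusted p = 3.54e-06), and was lower in *jac1* both after UV-C (log2 FC -0.51, adjusted p = 2.12e-04) and without treatment (log2 FC -0.57, adjusted p = 1.08e-04). Its interaction of 0.06 did not pass the test (adjusted p = 0.735, 2 standard errors either side -0.16 to 0.28), and its sign was negative under library size alone and without UV-C treated *jac1* replicate 3.

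Summed over roles, the 3 glucan-transferring genes reached 80.4 to 84.5 CPM in UV-C treated *jac1*, 103 to 109 CPM in the UV-C treated wild type, 117 to 132 CPM in non-treated *jac1* and 242 to 255 CPM in the non-treated wild type. The 4 β-amylase genes summed to 650.0 to 709 CPM in UV-C treated *jac1*, 619 to 683 CPM in the UV-C treated wild type, 860 to 987 CPM in non-treated *jac1* and 568 to 754 CPM in the non-treated wild type. The glucan-transferring sum did not overlap between groups, whereas the β-amylase sum of the non-treated wild type overlapped with both treated groups.

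**Figure D3:**
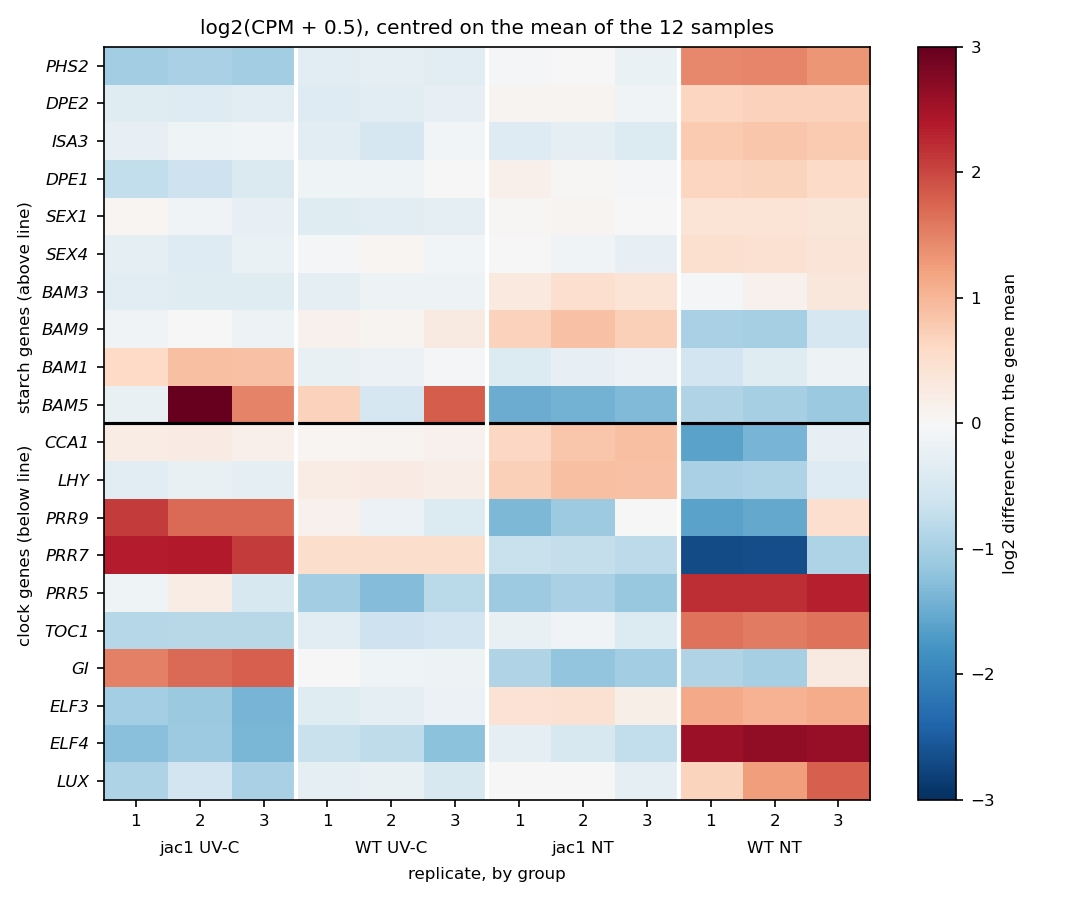
log2(CPM + 0.5) of the 10 starch genes (rows above the line) and 10 clock genes (below it) in the 12 samples (columns, by group and replicate), each centred on its own mean; red is above and blue below that mean, and colours end at 3. *PHS2*, *ISA3*, *TOC1*, *ELF4* and *PRR5* are high in the 3 non-treated wild-type columns, and *BAM9*, *CCA1* and *LHY* are highest in non-treated *jac1*.

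Clock genes are given beside these values because starch gene transcripts cycle. The 6 evening genes (*PRR5*, *TOC1*, *GI*, *ELF3*, *ELF4*, *LUX*) summed to 41.2 to 47.3 CPM in UV-C treated *jac1*, 62.1 to 64.5 CPM in the UV-C treated wild type, 77.7 to 95.1 CPM in non-treated *jac1* and 214 to 233 CPM in the non-treated wild type. The 4 morning genes (*CCA1*, *LHY*, *PRR9*, *PRR7*) summed to 908 to 968 CPM in UV-C treated *jac1*, 1029 to 1051 CPM in the UV-C treated wild type, 1447 to 1669 CPM in non-treated *jac1* and 395 to 722 CPM in the non-treated wild type. *TOC1* and *ELF3* carried most of the evening sum, and *CCA1* and *LHY* most of the morning one. Other clock genes differed: *PRR7* was at 69.2 to 83.4 CPM in UV-C treated *jac1* and at 8.92 to 9.68 CPM in non-treated *jac1*, and *GI* averaged 3.89 ± 0.441 CPM in UV-C treated *jac1* and 0.534 ± 0.554 CPM in the non-treated wild type (SD, n = 3 each). The part of the clock or of the time of collection in the starch gene values was not tested.

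Within the non-treated wild type, replicate 3 stood apart in the morning genes, with 288 CPM of *CCA1* and 424 CPM of *LHY*, against 112 and 130 CPM of *CCA1* and 281 and 294 CPM of *LHY* in the others. *BAM9*, *BAM3*, *BAM1* and *DPE2* were highest of their group in that sample too, with 111, 548, 94.7 and 86.8 CPM. For *DPE2* this was close to the 86.0 CPM of replicate 2. *PHS2*, *SEX1*, *SEX4*, *DPE1* and *BAM5* were lowest of their group in it, and *ISA3* lay between the others. All 3 DEGs of *jac1* against the wild type without treatment stayed DEGs without that sample.

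The gene whose expression was most like that of each member was sought among all genes tested, by the root mean square difference of log2 CPM centred on each gene's mean over the 12 samples. For *BAM9* it was the clock gene *LHY*, with a difference of 0.135, where *BAM9* itself varied by 0.586. For *PHS2* it was AT4G12290 (0.15, own variation 0.891), with the B-box gene *BBX13* and the clock gene *TOC1* next (0.165 and 0.206). For *ISA3* it was the kinase gene *PBL1* (0.139, own variation 0.496). *DPE1* was most like AT3G10040 (0.0855), *DPE2* like *HB5* (0.09), *SEX1* like *BGAL10* (0.0626), *SEX4* like *PECT1* (0.0917), *BAM3* like *SPA1* (0.0781) and *BAM1* like AT3G26910 (0.11). *BAM5* had no close match, its nearest gene AT5G22545 being 1.02 away. These distances describe 4 groups of 3 samples and rest mostly on the 4 group levels.

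A list of 18 other genes of starch degradation, all of them tested, is set beside the 10. Under alternative processing the calls of the 10 genes were followed, and those of this and the other lists were not. In *jac1* after UV-C, 6 of the 18 were DEGs, against 13.7% of all genes. Of these 4 rose: *ESV1*, which helps keep starch in granules, by a log2 FC of 2.03, the chloroplast α-amylase gene *AMY3* by 1.64, *BAM4*, another catalytically inactive β-amylase relative, by 1.28, and the glucose exporter gene *pGlcT* by 1.07. The other 2 fell: *BAM6* (log2 FC -1.61) and *PWD* (log2 FC -1.52), which encodes the second dikinase of the granule surface. *ESV1* was at 172, 177 and 170 CPM in UV-C treated *jac1*, 40.97, 37.2 and 37.0 CPM in the UV-C treated wild type. Non-treated *jac1* had 38.5, 45.7 and 42.7 CPM of it, and the non-treated wild type 24.7, 24.3 and 26.8 CPM. After UV-C in the wild type only *BAM6* of the 18 was a DEG (log2 FC -1.60), against 9.27% of all genes.

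Between the genotypes after UV-C, 6 of the 18 were DEGs, against 4.21% of all genes. *ESV1* (log2 FC 2.17), *AMY3* (1.07) and *BAM4* (1.06) were higher in *jac1*, and *PWD* (-1.07), *AMY2* (-1.06) and *GWD2* (-1.11) lower. Without treatment, where DEGs were 1.95% of all genes, 0 of the 18 were DEGs by edgeR. By adjusted p alone 5 passed, against 9.53% of all genes. An unadjusted p under 0.05 was reached by 7. The share of all genes at that level was not counted, so nothing is read from this count. In the interaction 4 of the 18 were DEGs with a positive term, against 2.11% of all genes, *PHS1* (1.65), *ESV1* (1.43), *LESV* (1.05) and *BAM4* (1.03). *PHS1*, the chloroplast counterpart of *PHS2*, had 84.4, 80.8 and 86.2 CPM in UV-C treated *jac1*, 45.7, 39.9 and 49.7 CPM in the UV-C treated wild type. Non-treated *jac1* held 42.0, 44.5 and 42.0 CPM, and the non-treated wild type 69.8, 74.2 and 72.4 CPM. Like *PHS2*, *PHS1* was lower in *jac1* without treatment (log2 FC -0.75), but after UV-C it was higher in *jac1* (0.89) where *PHS2* was lower.

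Of 20 genes of starch synthesis, *GBSS1*, the granule-bound starch synthase that makes amylose, was the one DEG without treatment, higher in *jac1* (log2 FC 2.02), where 1.95% of all genes were DEGs. Its level was 217, 227 and 232 CPM in UV-C treated *jac1*, 151, 165 and 167 CPM in the UV-C treated wild type. Non-treated *jac1* reached 158, 179 and 211 CPM, against 34.3, 37.7 and 63.6 CPM in the non-treated wild type. It rose after UV-C in the wild type (log2 FC 1.84) and had a negative interaction (-1.54), the only DEG of that list in the interaction. *SS4*, which starts granules, fell in *jac1* (log2 FC -1.43) and in the wild type (-1.10) after UV-C, and *ISA2* fell in *jac1* (-1.02). After UV-C 0 of the 20 were DEGs between genotypes by edgeR, against 4.21% of all genes. By adjusted p alone 9 passed, against 28.1% of all genes. An unadjusted p under 0.05 was reached by 14. The share of all genes at that level was not counted, so nothing is read from this count.

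**Figure D4:**
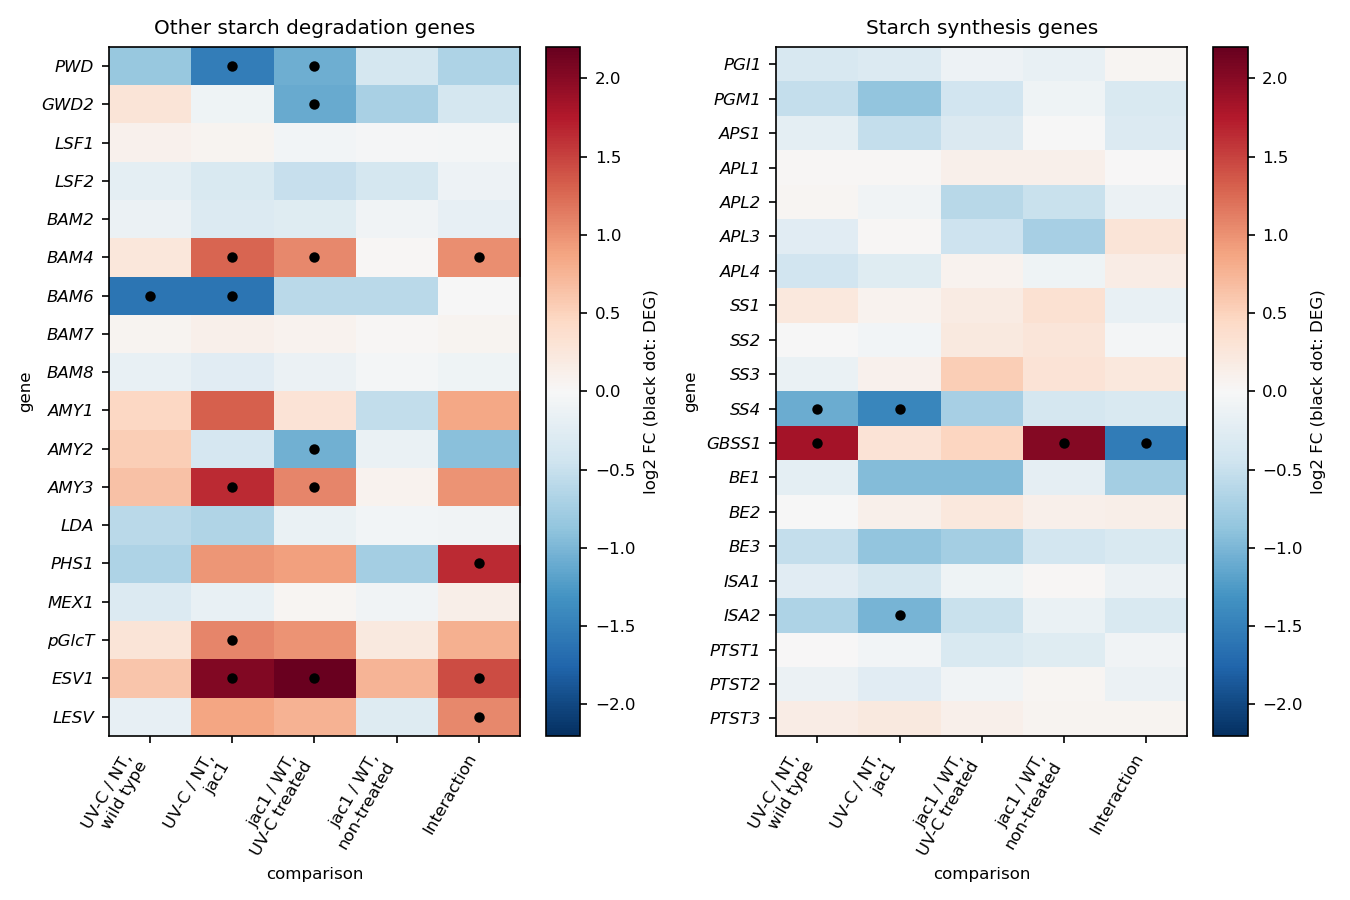
log2 FC (colour) of the 18 other starch degradation genes and 20 starch synthesis genes (rows) in the 5 comparisons (columns); black dots mark DEGs. *ESV1* has the highest value, 2.17 for *jac1* against the wild type after UV-C, and *GBSS1* is a DEG in the wild type after UV-C, in *jac1* against the wild type without treatment and in the interaction.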

How the data were processed

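Poly-A mRNA, taken from the total RNA of 12 rosette samples, was sequenced. The authors aligned the reads with STAR 2.5.2b and deposited raw counts of reads per gene. These counts were made with featureCounts 1.6.2 from exons of the Araport11 annotation. By the header of the deposited table the strand was not used, and reads aligning to several places or overlapping several genes were left uncounted.

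The filter kept protein-coding genes that reached 5 reads in 3 or more of the samples (20021 nuclear, 72 chloroplast and 8 mitochondrial genes). A mean for each of the 4 groups was fitted to all samples with edgeR 4.0.16 after TMM scaling, in R 4.3.3 (limma 3.58.1), with DESeq2 1.42.0 as an alternative, and contrasts were tested by the two-sided quasi-likelihood test. The standard error is the log2 FC divided by the square root of F. Chloroplast-encoded genes took more of the counts after UV-C, so a fit on nuclear genes alone was one alternative. The others were the likelihood ratio test, DESeq2, its size factors, library size alone, no filter, filterByExpr, only the samples compared, an adjusted p under 0.05 with no fold threshold, replicate blocks and each sample left out.

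The study's methods call the replicates biological, and p-values measure the spread between these pools. All members were named, those that were a DEG in any comparison with every sample's value and the others with ranges. Genes of the other lists were named where they were DEGs, except the clock and marker genes, of which those a result turned on were named after their values were seen. The members, the lists and the motifs were chosen with earlier results of these data known. Protein sequences were not analysed here. The likelihood ratio test stands in the study's methods, and the quasi-likelihood test was used in its place.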

Additional observations from a re-analysis of the deposited data

Results flagged for a closer look

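The response to UV-C differed between *jac1* and the wild type in 6 of the 10 genes, as tested by edgeR's interaction term with Benjamini-Hochberg adjustment over all genes. Over all genes tested 13.4% did so by adjusted p, and 3.88% were DEGs of the interaction. The term, the log2 FC after UV-C in *jac1* minus that in the wild type, was -1.83 for *BAM9* and 1.36 for *ISA3*, the 2 that also passed the fold threshold. It was 0.86 for *BAM1*, 0.77 for *PHS2*, 0.61 for *DPE2* and 0.58 for *SEX1*, all with an adjusted p under 0.01. For *BAM9* the 2 responses had opposite signs, *BAM1* rose in *jac1* while its log2 FC of 0.21 in the wild type did not pass the test, and for *PHS2* and *DPE2* the fall was smaller in *jac1*. Each of these terms uses the non-treated wild-type samples. Across the fits that each left out one sample, the term ranged from -2.01 to -1.74 for *BAM9* and from 1.25 to 1.48 for *ISA3*.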

How the results depend on the processing

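An adjusted p under 0.05 with no fold threshold raised the number of the 10 genes called to 9 for UV-C in the wild type, 8 for UV-C in *jac1*, 5 for *jac1* against the wild type after UV-C, 7 without treatment and 7 for the interaction, from 2, 2, 0, 3 and 2, and over all genes to 9714, 12045, 8484, 3552 and 4966. The likelihood ratio test called 4 for UV-C in the wild type, adding *BAM5* and *BAM9*. With each sample left out in turn the numbers ranged from 2 to 3 for UV-C in the wild type and in *jac1*, from 0 to 1 between genotypes after UV-C (1 without UV-C treated *jac1* replicate 1) and stayed at 3 without treatment and at 2 for the interaction. Leaving out 1 sample turned the sign of 3 values that had not passed the test: *BAM5* between genotypes after UV-C (range -0.078 to 2.85), *BAM1* without treatment (-0.011 to 0.19) and the *DPE1* interaction (-0.026 to 0.13).

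With library size as the only scaling the median log2 FC of the tested genes was -0.15 for UV-C in the wild type, -0.26 in *jac1*, -0.27 between genotypes after UV-C, -0.11 without treatment and -0.16 for the interaction. The share of DEGs that were higher moved from 75.6 to 62.1%, 65.3 to 37.9%, 59.9 to 23.2%, 52.9 to 40.5% and 54.5 to 36.3% in the same order, and DEGs between genotypes after UV-C from 846 to 1275. Under this scaling 4 of the 10 were DEGs of UV-C in *jac1* (*BAM3*, *BAM5*, *BAM9* and *PHS2*, without *BAM1* at 0.76), and 5 values turned sign: *ISA3* in *jac1* (-0.087), *SEX1* (-0.035) and *ISA3* (-0.11) between genotypes after UV-C, *BAM1* without treatment (-0.021) and the *DPE1* interaction (-0.10). Of all single-gene values under the alternatives, 1086 kept direction and their call as a DEG or not, 45 were called there only, 1 was no longer called and 8 turned sign. By adjusted p alone, *BAM3* for UV-C in the wild type and *SEX1* without treatment each missed 0.01 under 5 alternatives, and the *SEX1* interaction and *DPE1* without treatment under 1 each. The cause was not tested.

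The replicate numbers did not pair the samples: same-numbered samples of different groups had correlated deviations of -0.12 to 0.25 by the numbers of the titles (over 0.1 in 3 of 18 pairs) and of -0.13 to 0.08 by those of the library names. A replicate block by titles called 2, 2, 0, 3 and 2 of the 10 genes in the 5 comparisons, and one by library names 3, 2, 0, 3 and 2, while over all genes the block by library names gave 191 DEGs without treatment in place of 391. Under it the adjusted p was 0.0913 for *SEX1* and 0.0101 for *DPE1* without treatment and 0.0139 for the *SEX1* interaction. Depth limits *BAM5*, whose 6 reads in non-treated *jac1* leave its fold change there uncertain.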
